A study of Mus musculus with 2 samples.

Results

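Very short introns of the mouse colon were taken as the splice junctions of the deposited mm9 junction file that carry the tag A=1 and span at most 100 bases from the first to the last intron base. They number 9366 of the 154088 A=1 junctions, or 6.08%, out of 402639 junctions in all. The other 144722 A=1 junctions, each over 100 bases, served for comparison and are called longer junctions. The file does not explain its tags. Among A=1 junctions over 5000 bases, 99.2% had exactly the length of some intron that the GENCODE vM21 annotation gives on the same chromosome and strand, against 8.42% for lengths 1 base shorter and 5.004% among junctions with the tag A=0. The measured length is therefore the intron length, and A=1 junctions have the lengths of annotated introns. For members this comparison separates less: 99.9% had the length of an annotated intron of their chromosome and strand, but so did 98.7% of lengths 1 base shorter, and 56.7% of A=0 junctions of at most 100 bases.

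The RNA came from colon of C57BL/6J mice aged 8 weeks, with males and females of a litter pooled, and the labels name no treatment and no altered gene. There is 1 group of 2 libraries, numbered replicates 1 and 2, of polyadenylated RNA over 200 nt depleted of ribosomal RNA and read from both ends at 76 nt. The labels list 1 donor record for both, so differences between the libraries may be partly technical, and no condition can be compared. The junction file counts reads separately for libraries it names R1 and R2, and does not say which replicate each is. All statements on R1 and R2 compare those libraries only. R1 had 0 reads at the A=1 junctions of chromosome Y and R2 had 602, which for R1 goes against the label of pooled males and females.

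An intron is removed by the spliceosome, which recognises a 5′ splice site, a branch point, a polypyrimidine tract and a 3′ splice site. In mammals most introns are long and the machinery first pairs the splice sites across the exon. Where the intron is short, the sites can instead be paired across the intron itself, and U1 and U2 particles then sit close together, so a lower limit on intron size follows from the room they need.

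No genome sequence was used here, so introns themselves are not printed. Shown instead, because they let a reader see what the removal of a very short intron leaves in the mRNA, are exon joins from GENCODE vM21 transcripts, on mm10. Each has 15 bases of the upstream exon and 15 of the downstream exon, with the last 2 exon bases before the intron and the first base after it in capitals. The genes belong to the 10 with the highest levels, by mean TPM (a transcript's abundance per length, with the same total in each library), that code for proteins and have an annotated intron of at most 100 bases. Muc2 encodes the secreted mucin of goblet cells, Actb cytoplasmic actin, Gapdh a glycolytic enzyme, Rpl13 and Rps2 ribosomal proteins, Crip1 a small LIM-domain protein and Eef1a1 the elongation factor that delivers aminoacyl-tRNA.
Muc2, across an intron of 82 bases at chr7:141694433-141694514: cgactgtgagcagTGTgtctgcaatgctgg
Actb, across 87 bases at chr5:142905477-142905563: cgccctaggcaccAGGgtgtgatggtggga
Gapdh, across 84 bases at chr6:125162394-125162477: cgcctggagaaacCTGccaagtatgatgac
Rpl13, across 82 bases at chr8:123102763-123102844: gcgcaagatccgcAGGcgcaaggcccggca
Crip1, across 79 bases at chr12:113153376-113153454: gggggtcatgctgAGCatgaaggcaagccc
Rps2, across 81 bases at chr17:24720453-24720533: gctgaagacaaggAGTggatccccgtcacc
Eef1a1, across 77 bases at chr9:78479775-78479851: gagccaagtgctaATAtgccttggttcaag
Actb, Gapdh and Eef1a1 lie on the minus strand and the others on the plus strand, and each sequence is read 5′ to 3′ in the sense of the mRNA. Actb and Rpl13 have AGG at the join, the letters that a classical exon end and start give, and the other 5 do not. Joins of Rps21, Rplp0 and Pyy, also among the 10 genes, are not printed, and they lack AGG too. These mm10 introns were not matched by position to the mm9 junctions described next.

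Members were 33 to 100 bases long and had a broad top from 80 to 89 bases, with 359 to 447 junctions at each length. The commonest length was 82 bases, with 447 junctions, little above the 431 at 88 bases. The quartiles were 80, 86 and 92 bases. A running mean over 5 lengths had its top at 87 bases, with 416 junctions per length. Between 71 and 80 bases there were 2195 members, between 81 and 90 bases 4039, and between 91 and 100 bases 2917. Only 215 members had 70 bases or fewer, so the lower flank was steep, whereas the upper flank went on past the limit with 2169 junctions at 101 to 110 bases and 1737 at 111 to 120. Lengths of the form 3n + 1 made up 35.7% of members, those divisible by 3 made up 31.8% and the rest 32.6%. Among longer junctions these shares were 33.4%, 33.3% and 33.3%. Members lay on the plus strand in 48.0% of cases and longer junctions in 50.6%. The limit of 100 bases falls on a slope and at no gap: 245 junctions had 100 bases and 245 had 101, with median reads of 61 and 71.

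**Figure D1:**
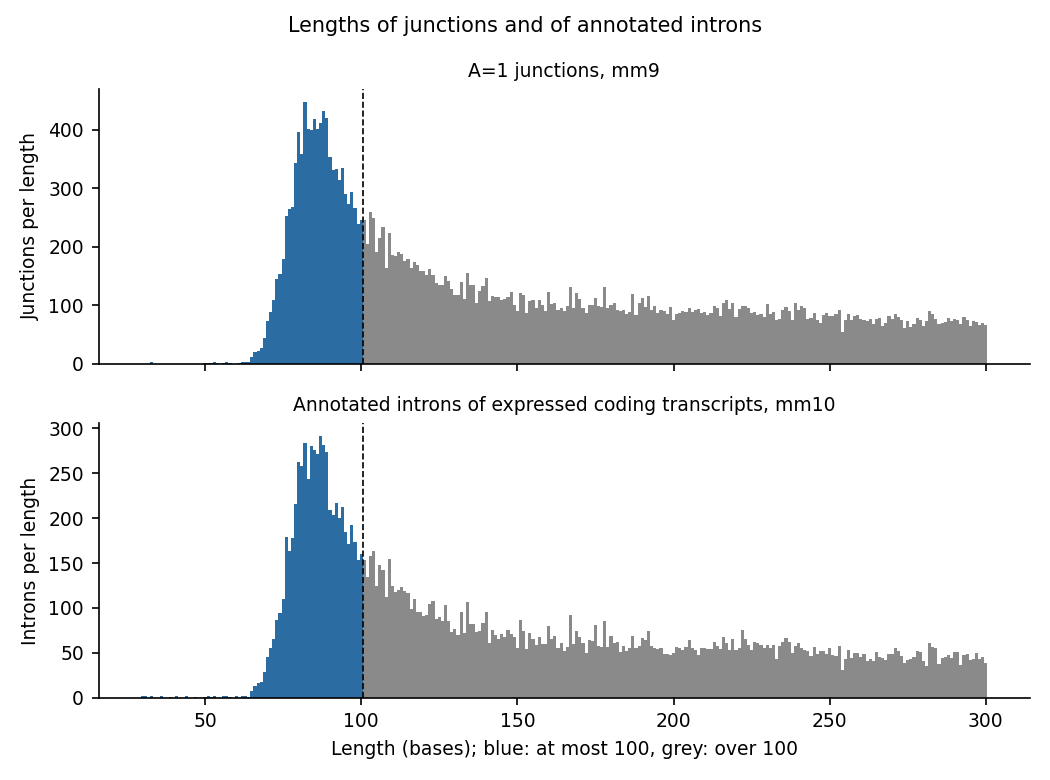
Number of A=1 junctions (top, mm9) and of annotated introns of expressed protein-coding transcripts (bottom, mm10) at each length from 30 to 300 bases; blue bars are lengths of at most 100 bases, grey bars longer ones, and the dashed line marks the limit. Both have a steep rise near 70 bases and a peak between 80 and 90, with the commonest short length at 82 among junctions and 87 among annotated introns.

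Annotated introns of the genes expressed in the same libraries had a like distribution on mm10. Protein-coding transcripts with a TPM of at least 1 in both libraries had 90056 distinct introns, of which 6130 (6.81%) had at most 100 bases, with a median of 86 and a commonest length of 87. Of these, 26 were under 33 bases, shorter than any member, such as annotated gaps of 1 and 2 bases in Muc2.

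Members under 60 bases were rare. They numbered 13, or 0.139% of members, whereas 42.5% of the 28646 A=0 junctions of at most 100 bases were that short. The smallest members, both of 33 bases, were chr11:120624305-120624337 on the plus strand, with 14 reads in R1 and 35 in R2, and chr8:73872801-73872833 on the plus strand, with 29 in R1 and 0 in R2. The junction on chromosome 8 thus had all its reads in R1. The others were 50 to 58 bases long, and 1 of them stood apart by its reads. This junction, chr8:87417584-87417640 on the minus strand, had 57 bases and 599 reads in R1 and 710 in R2. It was the shortest member with at least 100 reads. Next in length came chr15:76425041-76425103 on the plus strand, 63 bases, with 138 reads in R1 and 133 in R2. After it came chr5:115688079-115688143, also on the plus strand, 65 bases, with 1074 and 622 reads. None of these 3 reached a 2-fold difference between the libraries.

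Members carried more reads than longer junctions in both libraries. The median member had 86 reads over both libraries (quartiles 17 and 300), and the median longer junction 26 (quartiles 6 and 114), a ratio of 3.31. In R1 the medians were 41 and 12 reads, and in R2 they were 43.5 and 14, so the ratios were 3.42 and 3.11. At least 100 reads fell on 47.3% of members and 27.1% of longer junctions, and at least 1000 on 7.20% and 3.503%. The difference was a gradient over length and no step at 100 bases. The median was 87 reads for members of at most 70 bases, 104 at 71 to 80, 89 at 81 to 90 and 72 at 91 to 100. Beyond the limit it was 73 reads at 101 to 110 bases, 61 at 151 to 200, 38 at 301 to 500 and 20 over 1000. Against the 12706 junctions of 101 to 200 bases, with a median of 65, the ratio was only 1.32. Members held 6.08% of A=1 junctions but 9.76% of R1 reads and 9.69% of R2 reads at A=1 junctions. No test was made of short against longer, since junctions of 1 library are not replicates, and many lie in the same transcripts.

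**Figure D2:**
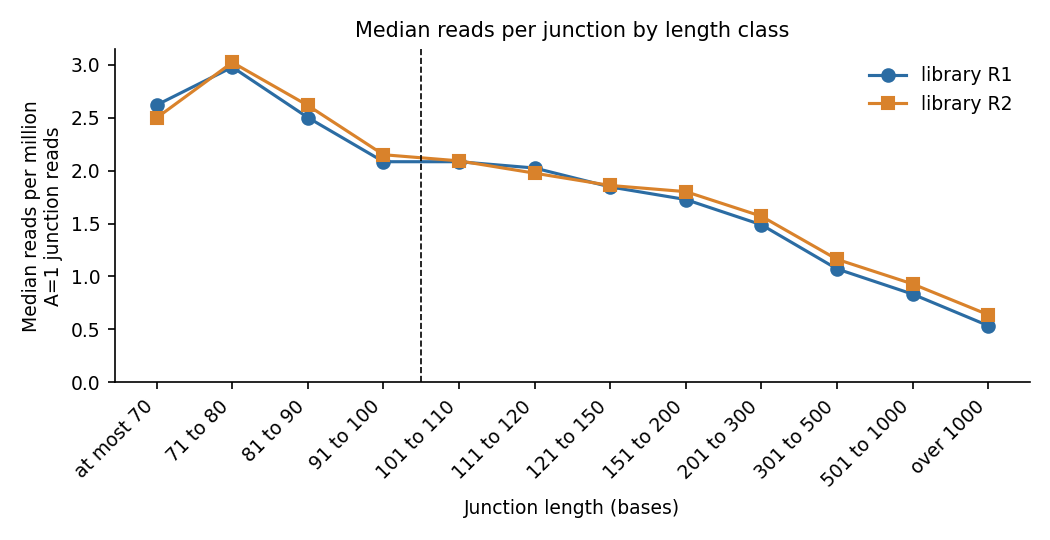
Median reads per junction (RPM, scaled to all reads at A=1 junctions) for 12 classes of junction length in bases; circles are library R1, squares library R2, and the dashed line marks the limit of 100 bases. Both libraries peak at 71 to 80 bases (2.98 in R1, 3.02 in R2) and fall without a step at the limit to 0.536 and 0.639 over 1000 bases.

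The members with the most reads were much alike in the 2 libraries, with 1 exception among the top 10. First was chr5:143667156-143667242 on the minus strand, 87 bases, with 52138 reads in R1 and 42251 in R2, or 3.18% and 2.53% of all reads of members. Second was chr12:114391587-114391665 on the plus strand, 79 bases, with 22589 and 20956 reads. Next was chr18:78018718-78018817 on the plus strand, exactly at the limit with 100 bases, with 15487 and 14414 reads. These 3 differed by at most 0.34 on the log2 scale after scaling to each library's reads. The exception, chr8:114213305-114213396 on the minus strand with 92 bases, had 25 reads in R1 and 29874 in R2. Scaled to all A=1 reads, that is 1.49 against 1736 RPM, so nearly all its reads came from 1 library. Of the other 6, chr15:76734881-76734968 on the plus strand, 88 bases, differed most, with 7153 and 12464 reads and a log2 ratio of R1 over R2 of -0.77. Another, chr11:5607559-5607626 on the minus strand, was the shortest of the 10, with 68 bases, 8165 reads in R1 and 13410 in R2. The remaining 4 were 85 to 96 bases long and differed by less than 0.46 in log2. They were chr7:51484185-51484280 (13403 and 14490 reads), chr7:133941063-133941157 (10614 and 12087), chr10:80642542-80642626 (9236 and 10858) and chr9:21912342-21912429 (11444 and 8537).

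Just inside the limit, the other members with most reads at 100 bases were chr12:70473211-70473310, with 4536 reads in R1 and 3363 in R2, and chr10:79147650-79147749, with 1591 and 1037. Just outside it, at 101 bases, were chr10:127523253-127523353 with 14952 and 16263 reads, chr7:148881375-148881475 with 1868 and 2729, and chr10:79225291-79225391 with 2994 and 1410. Junctions with well over 1000 reads thus occur on both sides of the limit.

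Reads in both libraries were found for 8404 members, or 89.7%, against 82.5% of longer junctions. A further 328 members had reads only in R1 and 634 only in R2, and 95.3% of these had fewer than 10 reads. The higher share went with the higher read counts of members: at 1 to 9 reads it was 46.8% for members and 47.8% for longer junctions, and at 10 to 19 reads 96.4% and 97.4%. In each class below 1000 reads, members were seen in both libraries slightly less often than longer junctions. A junction of few reads can miss 1 library by counting alone.

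Agreement in level was measured as the scaled log2 ratio of R1 over R2, with 0.5 added to each count, among junctions with at least 10 reads. Of the 7642 members with that many reads, 86.1% were within 2-fold, against 80.9% of 97450 longer junctions and 85.2% of those of 101 to 200 bases. The median absolute log2 ratio was 0.39 for members and 0.46 for longer junctions, and the median signed ratios were 0.03 and -0.03. Across members, log2 reads in R1 and R2 had a Pearson r of 0.914 and a Spearman rho of 0.947, and across longer junctions 0.897 and 0.909, as a description over junctions that share their libraries. Agreement was higher at higher reads in both sets up to 999 reads. It was 55.4% for members and 57.8% for longer junctions at 10 to 19 reads, 84.0% and 85.3% at 50 to 99, and 94.7% and 93.6% at 100 to 499. At 500 to 999 reads it was 96.7% and 96.3%, and at 1000 or more 97.8% of 674 members and 94.9% of 5069 longer junctions, the widest gap and a lower value than the class before for longer junctions. The coefficient of variation between libraries beyond counting, as edgeR estimates it, was 0.283 for members and 0.300 for longer junctions.

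An exact binomial test per junction asked whether R1 and R2 differed beyond counting error, with the Benjamini-Hochberg adjustment over all 105092 A=1 junctions with at least 10 reads. Junctions with an adjusted p of at most 0.05 and a ratio of at least 2-fold were called. Calls were made for 643 members, or 8.41%, against 9.79% of all junctions tested. Of these, 280 members were higher in R1 (4.25% of all tested were) and 363 higher in R2 (5.54% of all tested were). The members' share lay close to the background, and it changed with reads. In each class below 100 reads members were called slightly more often than longer junctions, as at 50 to 99 reads (15.7% and 14.5%). In each class from 100 reads they were called less often, as at 1000 or more (2.23% and 5.11%). In edgeR's exact test, with the spread between the libraries estimated over all junctions and the same 2-fold minimum, 31 members were called, or 0.406%, against 0.278% of all. Of those, 3 were higher in R1 (0.0276% of all tested) and 28 higher in R2 (0.25% of all tested). The binomial test covers counting error only and compares these libraries, and the edgeR test also counts the spread between them. That spread was estimated from the same libraries that were compared. The edgeR test can therefore call only junctions whose difference stands out from that of junctions in general. Without the minimum ratio the binomial test called 2276 members (29.8%), against 24.5% of all, and among junctions with at least 100 reads it called 198 members (4.47%), against 5.68% of all. The lean towards R2 did not hold in these settings: without the minimum ratio 1285 members were higher in R1 (13% of all tested were) and 991 in R2 (11.5%), and from 100 reads 99 were higher in R1 (2.94% of all tested) and 99 in R2 (2.74%). Whether members were called more or less often than all junctions also depended on the setting.

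**Figure D3:**
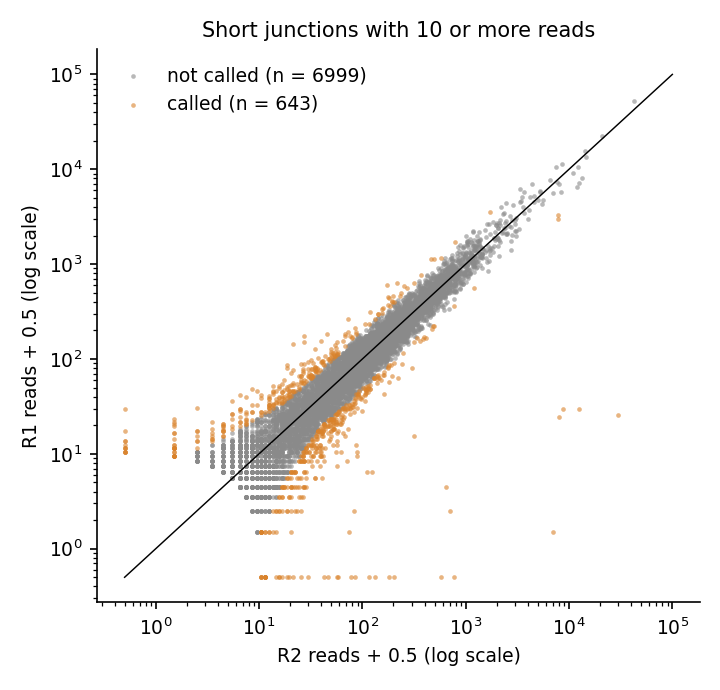
Reads in R1 against reads in R2 for the 7642 members with at least 10 reads, 0.5 added to each, on log axes; each point is 1 junction, orange where the exact binomial test called it, and the line marks equal reads. Most points follow the line, and a few with over 1000 R2 reads and under 100 R1 reads lie far below it.

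The widest gaps between the libraries were towards R2. The junction chr8:108456806-108456879 on the minus strand, 74 bases, had 1 read in R1 and 7058 in R2. Close by on that strand, chr8:108456334-108456406, 73 bases, had 29 and 12619. At chr4:141401014-141401096 on the minus strand, 83 bases, there were 0 reads in R1 and 774 in R2, at least 252-fold higher in R2 when R1 is set to a floor of 3 reads. At chr2:28416553-28416646, 94 bases, the counts were 0 and 576, at least 187-fold. With the junction of 29874 R2 reads named above, these are the 5 largest ratios among called members with at least 100 reads. The binomial call was a condition for naming them, and all 5 reach 100 reads only through R2. On the same counts, edgeR's exact test called all 5 higher in R2 as well. Towards R1 the ratios among called members with at least 100 reads were far smaller. The top 3 lie close together on the minus strand of chromosome 8, starting at 126416053, 126417371 and 126416636, with 142, 173 and 150 reads in R1 and 21, 27 and 27 in R2. These 3 had log2 ratios of 2.76, 2.69 and 2.49. The next were chr8:4249342-4249425, with 86 and 18 reads, and chr5:106315242-106315335, with 185 and 45. The binomial call was a condition for naming these 5 as well. All but chr8:4249342-4249425 reach 100 reads only through R1. On the same counts, edgeR's exact test called only the first 2 of the 5, with adjusted p of 0.043 and 0.048. Below 100 reads, the junction of 33 bases on chromosome 8 with 29 and 0 reads was at least 9.9-fold higher in R1, and both tests called it. It reaches the minimum of 10 reads only through R1, and both tests used the same counts. Another member under 60 bases, chr1:90162854-90162904 on the minus strand with 51 bases, had 10 reads in R1 and 89 in R2. Both tests called it higher in R2. The junction of 33 bases on chromosome 11, with 14 and 35 reads, was called higher in R2 by the binomial test only.

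The gene tables, which are labelled by replicate, show a difference in cell markers that moves with the libraries. All 5 markers of pancreatic acinar cells (Ctrb1, Cela2a, Prss2, Cpa1, Pnlip) were lower in replicate 1, at 0.76 to 12.5 TPM, than in replicate 2, at 797 to 12054 TPM, with sums of 26.2 and 27841 TPM, and none was at 0. Red cell markers Hba-a1 and Hbb-bs summed to 283 and 1761 TPM. Markers of colon epithelium (Muc2, Tff3, Krt20, Krt8, Lypd8, Car1) summed to 32202 and 34667 TPM, and smooth muscle markers (Acta2, Tagln, Actg2) to 5114 and 5018 TPM, so the labelled tissue has its defining markers in both. Skeletal muscle markers Ckm and Acta1 summed to 112 and 61.6 TPM. The part of these differences in the members called between R1 and R2 was not tested, since R1 and R2 are not tied to replicate numbers. Expected counts of genes summed to 46689262 in replicate 1 and 45966841 in replicate 2, and A=1 junction reads to 16799302 in R1 and 17213143 in R2. In such bulk samples, fewer cells of a type and less RNA per cell cannot be told apart. Where the RNA of the acinar markers came from was not tested.

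Members were spread over all 21 chromosomes, unevenly. Chromosome 7 had most, 1039, followed by chromosomes 11 with 981, 17 with 813, 2 with 730 and 8 with 670. These 5 held 45.2% of members and 34.0% of longer junctions. As a share of each chromosome's own A=1 junctions, members were, outside chromosome Y, commonest on chromosome 17, at 10.3% (813 of 7920, exact 95% interval 9.61 to 11.0). Chromosomes 7 (9.11%), 15 (8.56%), 8 (8.55%) and 19 (8.26%) followed; the intervals of these 4 overlap, and that of chromosome 7 (8.59 to 9.66) reaches into that of chromosome 17. The lowest shares were 2.88% on chromosome 1 (265 of 9208, interval 2.55 to 3.24), 3.09% on chromosome 13 and 3.38% on chromosome 18, and these 3 intervals overlap too. Highest and lowest outside Y differed 3.57-fold. The intervals cover counting error only, and junctions of 1 gene share their source. Chromosome Y had 9 members of 72 junctions (12.5%, interval 5.88 to 22.4), and R1 had no reads at any of the 72, short or longer.

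More reads on short than on longer junctions was a feature of 20 of the 21 chromosomes, all but Y. The ratio of medians went from 1.32 on chromosome 18 (29 and 22 reads) to 4.87 on chromosome 10 (126.5 and 26). Members on chromosomes 19 and 15 had the highest medians, 158 and 157 reads. The median length per chromosome was between 84 and 89 bases outside Y, where it was 80. Outside Y, the commonest length, which rests on few junctions per chromosome, went from 78 bases on chromosome 15 to 97 on chromosome 1. By reads, the order of chromosomes changed. On chromosome X, members were 6.25% of A=1 junctions but took 17.7% of R1 and 18.6% of R2 reads, the highest shares among chromosomes seen in both libraries. Chromosome 3 was lowest in R1, with 3.05% (3.77% in R2), and chromosome 1 in R2, with 3.51% (3.63% in R1). Single junctions weigh on such sums: the junction named above made up 68.0% of the members' reads on chromosome 18, and others 45.9% on chromosome 12 and 33.1% on chromosome 5. On chromosome X the top junction made up 6.14%.

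**Figure D4:**
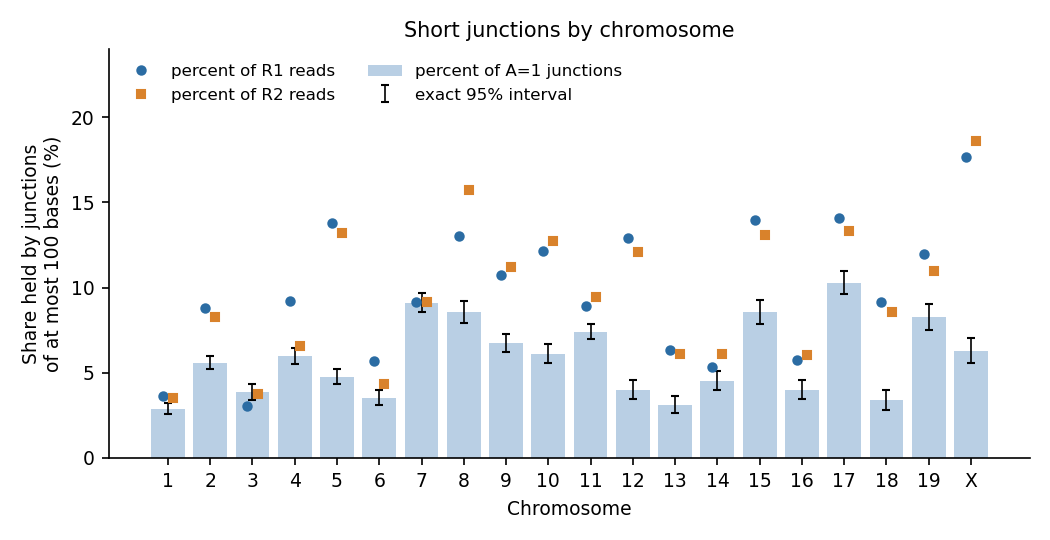
Junctions of at most 100 bases as a percent of the A=1 junctions of each chromosome (bars, with exact 95% binomial intervals) and as a percent of its A=1 junction reads in R1 (circles) and R2 (squares). Bars run from 2.88% on chromosome 1 to 10.3% on chromosome 17, while reads are highest on chromosome X; chromosome Y, with 9 members, is left out.

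Members often stood close together. The next A=1 junction of the same strand was sought towards higher coordinates, which on the minus strand is upstream. It started within 300 bases of the end of 8121 members. Of these members, 20.8% had a member as that next junction, against 5.95% of 113401 longer junctions with such a neighbour. In all, 2941 members (31.4%) lay in 1204 runs of at least 2 members, each starting within 300 bases of the one before. Of these runs, 46 had at least 5 members. Runs were built from members alone, so longer junctions may lie between them. The longest run, chr15:76283809-76286301 on the minus strand, had 12 members of 71 to 93 bases. They had 257 to 1444 reads each, with 4033 reads in R1 and 3801 in R2 in all. Next came 11 members at chr14:31952390-31954718, with 2410 and 1740 reads. Another 11 lay at chr15:76426363-76428405, with 1524 and 1535. Of the 8 longest runs, 4 lay within a stretch of chromosome 15 from 76283809 to 76431111. Members of a run can lie in 1 transcript and are then not independent. The distance of 300 bases was chosen after seeing the data.

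Most members lay inside a deposited contig. The deposited contig file lists transcribed stretches of mm9, and 5640 members (60.2%) lay wholly inside 1 contig of their strand, against 11.95% of longer junctions. The share fell with length: it was 86.5% at 70 bases or fewer, 72.7% at 71 to 80, 58.6% at 81 to 90 and 51.1% at 91 to 100. Past the limit it was 49.7% at 101 to 110 bases, 39.7% at 201 to 300 and 1.93% over 1000. It rose with reads, from 22.6% of members with 1 to 9 reads to 94.2% of those with 1000 or more. At that many reads the share was 87.9% for junctions of 101 to 200 bases and 42.1% for all longer ones. The 10 members with the most reads all lay inside a contig. How contigs were joined is not given in the sources used here, the smallest gap between contigs of a strand being 11 bases, so a contig over an intron does not by itself show reads in it.

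**Figure D5:**
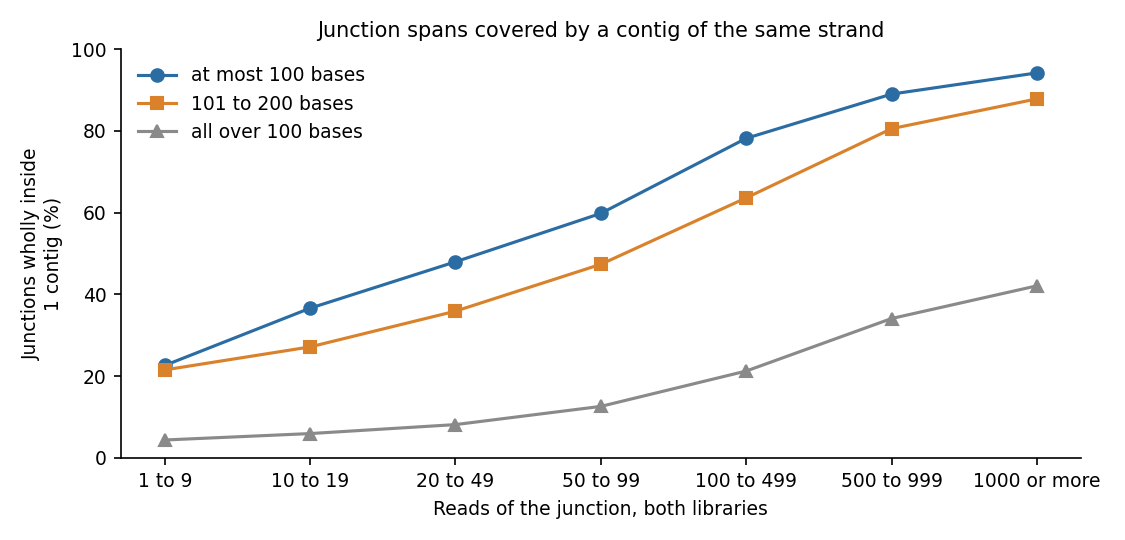
Percent of A=1 junctions whose whole span lies inside 1 contig of the same strand, by reads of the junction in both libraries together; circles are junctions of at most 100 bases, squares those of 101 to 200 bases and triangles all over 100 bases. Members rise from 22.6% to 94.2%, above the junctions of 101 to 200 bases in each class.

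Few members overlapped a longer junction. A longer A=1 junction of the same strand spanned 523 members (5.58%), against 10.1% for longer junctions within another, and 480 members (5.12%) shared an end with one. Where member and partner junctions sharing an end had at least 10 reads together, in 452 cases, the member took a median of 77.3% of those reads. It took at least 90% in 176 cases and at most 10% in 109, so both extremes were common. Pooled over members sharing an end, the short form took 52.6% of the reads in R1 and 50.6% in R2. Members that shared an end had a median of 43 reads, and those that shared none 88.5. The junction of 65 bases on chromosome 5 named above is of this kind, with 1696 reads of its own and 23 on the junctions sharing an end.

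On the gene side, 2555 of 8315 genes with an expressed multi-exon protein-coding transcript (30.7%) had an annotated intron of at most 100 bases. Their median level was 28.1 TPM in replicate 1 and 27.3 in replicate 2, against 15.2 and 15.1 for the 5760 genes without one, a ratio of 1.83 by mean TPM. Without a minimum TPM that ratio was 4.12. The share of genes with a short intron was 21.9% at a mean of 1 to 10 TPM, 33.8% at 10 to 100, 42.2% at 100 to 1000 and 34.7% of the 75 genes above. Short introns lay between coding exons in 97.9% of cases, against 92.9% for longer introns, and in the 5′ untranslated region in 1.48% against 6.44%. In transcripts with at least 3 introns, 3.72% of short introns were the first intron of their transcript, against 10.5% of longer ones, whereas 9.13% and 9.08% were the last. AGG stood at the join of 30.2% of coding-gene introns of 33 to 100 bases and of 28.1% of longer ones. The 50 exon bases on each side had a median GC content of 55% around short introns, 52% around longer ones and 55% around those of 101 to 200 bases.

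Among the 10 genes with the highest levels, Muc2 had 8861 and 11591 TPM in replicates 1 and 2 and, beside its gaps of 1 and 2 bases, short introns of 82, 86 and 92 bases. Actb, at 6682 and 6026 TPM, had introns of 87 and 95 bases. Gapdh, at 3494 and 3614 TPM, had introns of 84 and 98. The ribosomal protein genes of this group differed in number: Rps2 had 3 short introns (75, 81 and 88 bases), Rplp0 2 (87 and 94) and Rpl13 1 (82). Rps21, also of a ribosomal protein, had 1 of 92 bases. Crip1 had 1 of 79 bases, and Pyy, which encodes the gut hormone peptide YY, 1 of 100 bases, at the limit. The levels here are of genes, and a transcript with the short intron can be far lower. For Pyy, at 2056 and 1860 TPM, the highest transcript with that intron between coding exons had 34.2 and 21.7 TPM. Eef1a1, at 1937 and 2722 TPM, had 6 short introns from 77 to 99 bases. Within these 10 genes the number of short introns was 1 to 6.

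The genes with the most short introns were others. At least 2 were found in 1247 genes and at least 5 in 305. Lama5, a laminin chain of the basement membrane, had 31, at 54.6 and 57.1 TPM. Abca2, a lipid transporter, had 23, at 17.8 and 22.9 TPM. Flna, the actin crosslinker filamin A, encoded on the X chromosome, had 21, at 888 and 939 TPM. Sbf1 and Stab1 also had 21 each, and Lamb2, another laminin chain, had 20. These counts cover all expressed coding transcripts of a gene. They include annotated gaps under 33 bases and were not restricted to the 8315 genes above.

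Genes whose products recognise introns were all detected, with no difference that could be tested, there being 1 group of 2 libraries. The sum over the 14 listed genes was 1084 TPM in the first replicate and 1168 TPM in the second (1126 ± 58.8, SD, n = 2), and 4 were higher in replicate 1. At the 5′ splice site, the U1 particle genes Snrnp70, Snrpa and Snrpc had 63.8, 156 and 79.3 TPM in replicate 1 and 67.8, 129 and 76.6 in replicate 2. For the branch point and 3′ site, Sf1, the branch point binding protein, had 133 and 182 TPM, and the U2AF subunits U2af1 and U2af2 had 18.7 and 20.4, and 99.6 and 87.6. Rbm17, a U2AF-like splicing factor also called SPF45, had 19.6 and 30.8 TPM, the widest log2 ratio of the list at -0.63. In the U2 particle and the catalytic core, Sf3b1 had 16.1 and 18.5 TPM and Prpf8 43.9 and 48.9. Among regulators, Ptbp1, which binds pyrimidine tracts, had 244 and 283 TPM, Hnrnpf, which binds G-rich runs, 86.2 and 94.9, and the SR protein gene Srsf1 95.8 and 104. Hnrnph1 and Hnrnph2 had 23.6 and 19.6, and 3.65 and 4.37 TPM. Short introns were annotated in 6 of the 14 genes themselves: 6 in Prpf8, 4 each in Sf3b1 and Ptbp1, 3 in Hnrnph1, 2 in U2af2 and 1 in Sf1, of 56 to 99 bases.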

How the data were processed

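Junction reads are counts that the authors deposited per mm9 junction, with R1 and R2 in each junction's name. The deposited mm9 contigs were used by position, and their signal column, also given by the authors, was not analysed. Expected counts and TPM per gene and transcript are the authors' values on mm10 with GENCODE M4, per the deposited notes. Aligner, callers, contig rules and the meaning of the tags, including a second tag (0 for 26 members), are not stated in the sources read.

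Junctions were scaled to each library's A=1 reads. R1 and R2 were compared by exact binomial tests (scipy 1.17.1) and by edgeR 4.0.16. The code of the binomial test was checked on simulated counts that had counting error only. That check does not cover the spread between libraries beyond counting that these data have. Intervals are Clopper-Pearson and cover counting error only. GENCODE vM21 introns came from the 75380 of 115054 multi-exon transcripts (65.5%) found in the deposited tables without version and with equal length. Junctions were named by reads, length and ratio, genes by mean TPM and as a list. Members and lists were chosen with earlier results of these data known. Alternatives covered the length limit, read minimum, single libraries, scaling and test.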

Additional observations from a re-analysis of the deposited data

Results flagged for a closer look

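Junctions with the tag A=0 were used only to compare lengths, although some of at most 100 bases carried many reads. Of 28646 such junctions, with a median of 1 read, 136 (0.475%) had at least 100 reads, and 135 of these had reads in both libraries. The one with most reads, chr11:58203754-58203789 on the plus strand, spanned 36 bases and had 26342 reads in R1 and 10048 in R2.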

How the results depend on the processing

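Of 51 alternatives, 21 left a value in place and 30 moved it, a count being in place within 1.5 times and other values within the spread between libraries or the 95% interval. The number of members was 6449 with a limit of 90 bases and 11535 with 110. Weighted by reads, the commonest length was 87 bases. The ratio of median reads was 3.48 with a limit of 90 bases, 3.19 with 110, 2.09 with at least 10 reads, 2.88 to 3.0 from 1 library alone over junctions with reads in it and 1.32 against 101 to 200 bases, an alternative chosen after seeing the data. With at least 10 reads, 99.4% of members were in both libraries. The share inside a contig was 64.3% (limit 90), 58.2% (limit 110), 68.7% (at least 10 reads), 61.6% to 63.1% (1 library), 61.6% (either strand) and, chosen after seeing the data, 82.6% (at least 100 reads). The share inside a longer junction was 5.32%, 5.82%, 4.84% and 5.33% to 5.36% in the first 4 of these settings. Agreement within 2-fold was 89.7% from 20 reads, 75.5% without a minimum and 86.9% with 1 added. Calls fell to 31 with edgeR and 198 from 100 reads, and rose to 2276 without a minimum ratio, when 24.5% of all junctions were called. The split turned from 280 higher in R1 and 363 in R2 to 1285 and 991 without a minimum ratio, and members were then called more often than longer junctions (29.8% and 24.1%), as with edgeR (0.406% and 0.268%) and without a read minimum (6.49% and 6.27%). The span between chromosomes was 3.65-fold from 10 reads, 5.36-fold by reads (18.1% on X, 3.38% on 3) and 3.47 to 3.53 from 1 library. Without a TPM minimum, 26.7% of genes had a short intron, and the ratio of median TPM was 4.12 in place of 1.83. The cause of these shifts was not tested, beyond fewer junctions entering under stricter minimums. No paired analysis was possible because there is 1 group. At 1 to 9 reads, 46.8% of members were in both libraries.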
